A study of Trichechus manatus latirostris with 11 samples.

Results

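Chemokine receptors are the surface proteins by which white blood cells read gradients of chemokines, the small secreted proteins that direct their movement. The receptors examined were CXCR1, CXCR2, CCR2, CX3CR1, CXCR4, CXCR5, CXCR3, CCR1 and CCR7, chosen by gene symbol, and 7 of these 9 had a row among the 15298 rows of the deposited table. CXCR3 and CCR1 had no row under their symbols and are not analysed here. The set was put together with the group means of these data already known, so its group means are given as a description and without a test. Earlier results showed CXCR1 and CXCR2 among the genes with large differences, and these values chose them.

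Florida manatees are exposed to brevetoxins when the dinoflagellate Karenia brevis blooms, and the study compared buffy coats, the white cell layer of centrifuged blood, between adults with and without that exposure. The red tide group was 4 adult animals brought to Lowry Park Zoo for treatment of red tide illness. Some of them were sampled on arrival and the others after a week of treatment. These stages of treatment cannot be tied to single libraries, so their part in the spread within the group was not tested. The control group was 7 adults: 4 from Crystal River, 2 from the Indian River Lagoon in Brevard County and 1 that had pneumonia and was convalescing at Lowry Park Zoo. Ribosomal and globin RNA had been depleted from every sample, and 1 library was made from each. Sampling place, animal care and red tide exposure go together in this design and cannot be told apart, apart from the 1 control animal sampled at the zoo. By the dates that the study gives, every red tide sample was collected before any control sample. Sampling date and exposure therefore cannot be told apart either. The labels give RNAlater storage for all samples, whereas the methods of the study also describe immediate freezing for the red tide group.

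The table gives mean normalized counts, that is read counts divided by a size factor for the depth of each library, as a mean over 4 libraries, a mean over 7 libraries and a mean over all 11. The columns do not name their groups. In every row the overall mean was the average of both means weighted 4 to 7, to within a relative deviation of 3.3e-09. The first mean is thus over as many libraries as there were red tide animals, and the second over as many as there were controls. The assignment rests on these sizes. In the study's own wording a gene counts as upregulated by red tide where the mean of the larger group is higher, which is the reverse of what the sizes imply, so the exposure behind each direction is uncertain. Each direction below is therefore given by number of libraries. Size factors, read from the lowest means, were 1.56, 1.03, 0.620 and 0.372 in the 4 libraries and 0.702 to 1.73 in the 7 libraries. Over all rows the median log2 ratio of the 4-library to the 7-library mean was 0.14, and the ratios below are not corrected for this shift unless stated. Of these rows, 23.9% were at least 2-fold higher in the 4-library mean and 10.4% in the 7-library mean. With an overall mean of at least 10, which left 10225 rows, these shares were 12.3% and 9.59%.

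Each of these receptors crosses the cell membrane in 7 helices and signals through inhibitory G proteins to phosphoinositide 3-kinase and the small GTPases that move the cell. CXCR1 and CXCR2 bind CXCL8 and related chemokines and bring neutrophils out of the blood into tissue. CCR2 is best known on classical monocytes and CX3CR1 on patrolling monocytes and on cytotoxic lymphocytes. CXCR4 is carried by most leukocytes and holds cells in the bone marrow through CXCL12, while CXCR5 and CCR7 guide B cells and naive T cells to follicles and T cell zones of lymph nodes.

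The receptors of neutrophils and monocytes were lower in the 4-library mean and CXCR4 was higher. Of the lymphocyte receptors CCR7 lay within 2-fold, whereas CXCR5 had too few reads to be judged. CCR4 and CXCR6, T cell receptors outside this set that are described below, had log2 ratios of 1.75 and -1.28. At least 2-fold higher in the 7-library mean were 4 of the 7 receptors, namely CXCR1, CXCR2, CCR2 and CX3CR1, and 1 of the 7, CXCR4, was at least 2-fold higher in the 4-library mean. The remaining receptors, CXCR5 and CCR7, differed by less. At 2-fold the shares of all rows were 10.4% in the 7-library and 23.9% in the 4-library direction. At a limit of 1.5-fold, 5 receptors were higher in the 7-library mean and 1 in the 4-library mean, where the shares of all rows were 20.2% and 33.8%. The receptor added at this limit was CXCR5, at 1.61-fold on too few reads to be judged. At 4-fold the counts of receptors were 3 and 1, and the shares of all rows were 2.27% and 12%. The shares are background only, since the group means had a part in the choice of the receptors.

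**Figure D1:**
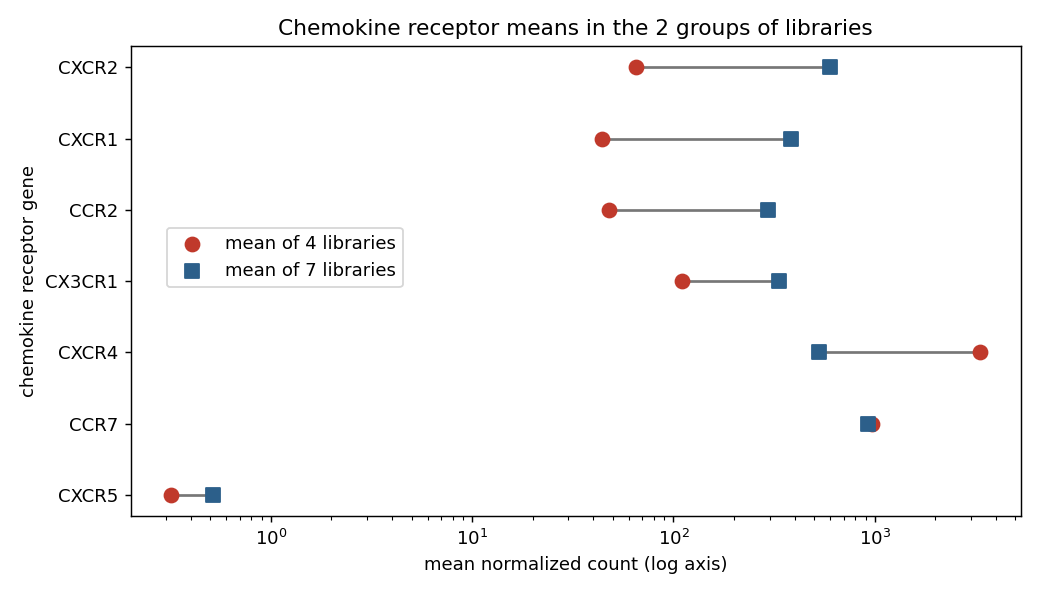
Mean normalized count of the 7 chemokine receptors (log axis) as the mean of 4 libraries (circles) and the mean of 7 libraries (squares), joined by a line. The circles lie left of the squares for CXCR2, CXCR1, CCR2, CX3CR1 and CXCR5, CXCR4 runs the other way from 530 to 3335, and the symbols of CCR7 nearly coincide at 969 and 928. No error bars are drawn because the table holds means only.

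CXCR2 (record XM_004376303.1) averaged 65.4 normalized counts in the 4 libraries and 598 in the 7 libraries, a 9.15-fold difference in favour of the 7 libraries and a log2 ratio of -3.19. CXCR1 (XM_004376304.1) had means of 44.0 and 383, an 8.71-fold difference in the same direction and a log2 ratio of -3.12. The pair stood at percentiles 0.343 and 0.369 of the log2 ratios of all rows, counted from the lowest. These genes encode the sister receptors for CXCL8 and lie next to each other in the RefSeq gene order of TriManLat1.0, with 34.6 kb between them. Their coding sequences are related, and the study kept only uniquely mapped reads, so reads from stretches that the 2 genes share would be missing from both rows. The assembly table names no scaffold for them, so no coordinates are given.

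For weakly expressed rows the group mean could be taken apart again, because it is a sum of whole reads that are each worth a fixed amount in their library. This gave the reads of CXCR1, CXCR2 and CCR2 in each of the 4 libraries, although not which animal a library came from. Libraries are named here by their size factors, in the order 1.56, 1.03, 0.620 and 0.372. CXCR1 had 15, 34, 76 and 4 reads in them, equal to normalized counts of 9.62, 33.1, 122 and 10.8 (mean 44.0 ± 53.4, SD, n = 4). CXCR2 had 20, 39, 104 and 16 reads, equal to 12.8, 38.0, 168 and 43.0 (65.4 ± 69.4, SD, n = 4). Both genes were highest in the library with the size factor 0.620 and lowest in the one with 1.56, and all 4 libraries lay below the 7-library mean of either gene. The spread of the 7 libraries is unknown for them, because their reads cannot be recovered at means this high.

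The library with the size factor 0.620 held 69.6% of the summed normalized count of CXCR1 and 64.1% of that of CXCR2. Among the 2122 rows with a symbol, recovered reads and a 4-library mean of at least 20, these shares stood at percentiles 98.8 and 97.3. Without this library the log2 ratio moved from -3.12 to -4.43 for CXCR1 and from -3.19 to -4.26 for CXCR2. Leaving out any of the other libraries gave values up to -2.79 and -2.85. The direction was thus the same for both genes with any 1 of the 4 libraries left out, while the size of the difference depended on that 1 library by more than 2-fold.

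CCR2 (XM_004368459.1), the receptor for CCL2 by which monocytes leave the bone marrow, had means of 47.7 over the 4 libraries and 296 over the 7, a 6.21-fold difference and a log2 ratio of -2.63 (percentile 0.788). Its reads were 97, 66, 30 and 6, equal to normalized counts of 62.2, 64.3, 48.4 and 16.1 (47.7 ± 22.2, SD, n = 4). These values differed from the pattern of the neutrophil receptors: CCR2 was highest in the libraries with the size factors 1.56 and 1.03, where CXCR1 and CXCR2 were lower than in that of 0.620, and the library with the size factor 0.620 held 25.3% of its sum, at percentile 50.8. All 4 libraries again lay below the 7-library mean. With any 1 of the 4 libraries left out, the log2 ratio of CCR2 lay between -2.81 and -2.35. Among the 3268 rows with recovered reads and a 4-library mean of at least 20, 23.6% had each of the 4 libraries below the 7-library mean. These rows have ratios of every size, whereas CXCR1, CXCR2 and CCR2 were chosen with their group means known. With 4-library means so far below the 7-library mean this order nearly follows, so the share is no neutral background for them.

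**Figure D2:**
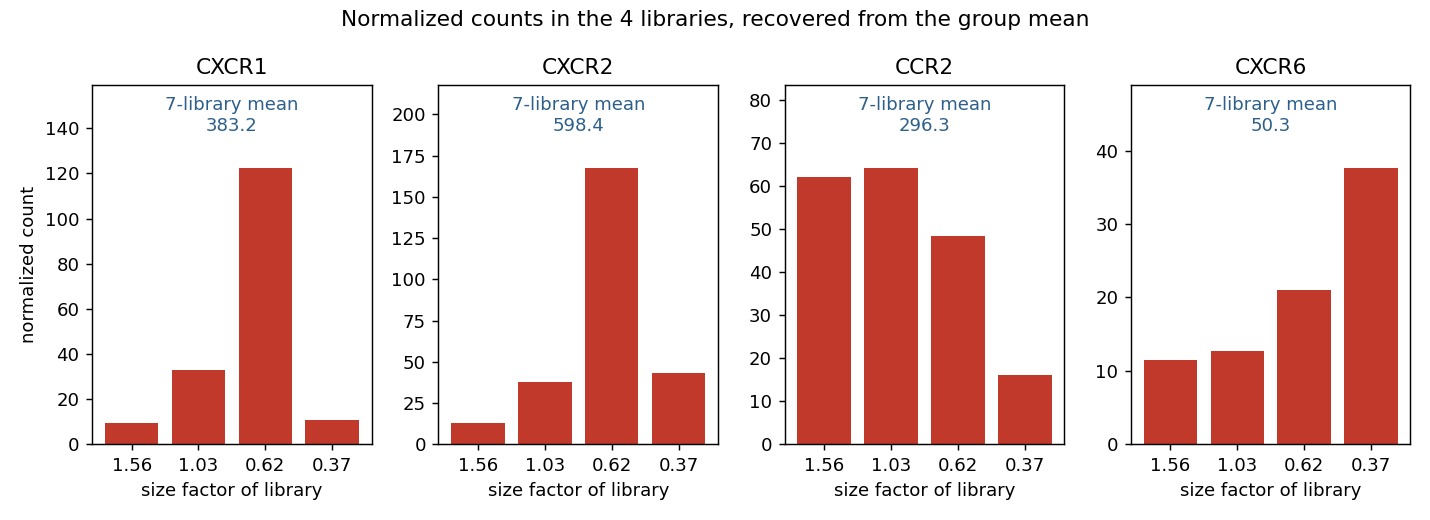
Normalized counts (bars, linear axis from 0) of CXCR1, CXCR2, CCR2 and CXCR6 in the 4 libraries, ordered by size factor, with the 7-library mean printed in each panel. CXCR1 and CXCR2 peak in the library with the size factor 0.620 at 122 and 168, CCR2 is highest in the first 2 libraries at 62.2 and 64.3, and CXCR6 is highest in the library with the size factor 0.372 at 37.7. Every bar is below the 7-library mean printed above it.

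The likeness of profiles was measured by the share of a row's normalized count in each of the 4 libraries, as the summed absolute difference in percentage points. Over these libraries, among 2122 rows, the rows nearest to CXCR1 were MMP1, an interstitial collagenase, at 2.29 points, CUNH8orf88 at 9.17, BSN, a presynaptic scaffold protein, at 12.5, CHGB, a secretory granule protein, at 13.8 and VCL, the adhesion protein vinculin, at 14.6. CXCR2 was 10th in this order at 20.7 points, and CCR2 was 904th at 88.6. The rows nearest to CXCR2 were PCDH17, a protocadherin, at 8.79 points, MAMDC2 at 8.79, GP1BA, a platelet glycoprotein, at 9.10, CUNH7orf57 at 11.7 and LOC101352639 at 13.1. CXCR1 was 32nd in this order at 20.7 points, and CCR2 was 1539th at 93.6. Of these 10 nearest rows, CUNH8orf88 and CUNH7orf57 were lower in the 4-library than in the 7-library mean, with log2 ratios of -0.62 and -2.09, and the other 8 were higher. The minimum of 20 for the 4-library mean admits rows that are high in these libraries alone, so this count says nothing of their direction in general. The distances rest on 4 values per row and are descriptive.

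CX3CR1 (XM_004377312.1), the receptor for membrane-bound fractalkine, had means of 111 over the 4 libraries and 335 over the 7, a 3.02-fold difference and a log2 ratio of -1.59 (percentile 3.96). Its 4-library mean was met by 3 different combinations of whole reads, so its values in single libraries are not settled. In the order of size factors above, the combinations were 134, 77, 160 and 9 reads, or 215, 62, 30 and 73 reads, or 284, 30, 112 and 19 reads. The highest normalized count in any of them was 258, so in each combination all 4 libraries lay below the 7-library mean. CX3CR1 lies next to CCR8, which had no row, with 76.4 kb between the genes.

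CXCR4 (XM_004375098.1) ran the other way. Its mean was 3335 over the 4 libraries and 530 over the 7, a 6.29-fold difference and a log2 ratio of 2.65 at percentile 91.8 of all rows. CXCR4 was the only one of the 7 receptors whose record had the same version number in the RefSeq table; for the others the record was matched without the version. At these means no single library could be recovered, so it is unknown whether the difference was carried by 1 library or by all 4.

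CCR7 (XM_004378078.1), which guides naive T cells and mature dendritic cells to lymph nodes, had means of 969 and 928, a 1.04-fold difference with a log2 ratio of 0.06 (percentile 46.5). After the median of all rows is subtracted, its log2 ratio is -0.08, so its sign depends on the scaling. The sign of no other receptor changed with this correction. Single libraries could not be recovered for CCR7 either, and a difference between the groups within their spread cannot be judged.

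CXCR5 (XM_004385651.1), the receptor for CXCL13 on follicular B and T cells, was close to the detection limit. It had 2 reads in the library with the size factor 1.56 and 0 in the other 3 of the 4 libraries, and 3 reads and 1 read in libraries with the size factors 1.11 and 1.10 and 0 in the other 5 of the 7. The means were 0.321 and 0.517, a log2 ratio of -0.69, and the ranges of the groups overlapped. From the summed reads and size factors, the ratio of the 4 to the 7 libraries was 1.19 with a 95% exact interval from 0.108 to 8.32, which covers counting error only. The ratio of means and the ratio of sums thus lay on opposite sides of 1. Without the library with the size factor 1.11 the log2 ratio was 1.09, so neither a difference nor its direction was detectable for CXCR5 at this depth. B cell markers were nevertheless present: MS4A1 (CD20) had means of 370 and 415.

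Beyond these receptors, 16 other chemokine receptors had been listed, and 8 of them had a row. The median of their log2 ratios was 1.44, beside 0.14 over all rows. At least 2-fold higher in the 4-library mean were 6 of the 8, and 1 was at least 2-fold higher in the 7-library mean, with the shares of all rows at 23.9% and 10.4%. CCRL2, an atypical receptor that binds chemerin and does not signal for migration, had means of 1786 and 212 and a log2 ratio of 3.07. CCR4, found on helper and regulatory T cells, had means of 459 and 136 and a log2 ratio of 1.75. Both thus had the direction of CXCR4.

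CXCR6, the receptor for CXCL16 on effector T and NKT cells, was the exception, with a log2 ratio of -1.28. Its reads in the 4 libraries were 18, 13, 13 and 14, equal to normalized counts of 11.5, 12.7, 21.0 and 37.7 (20.7 ± 12.1, SD, n = 4), and its 7-library mean was 50.3. All 4 values lay below that mean, as in CXCR1, CXCR2 and CCR2. CXCR6 is in the same stretch of the assembly as CCR2, within 454 kb that run in the RefSeq order through CXCR6, XCR1, LOC101358538, LOC101358798, CCR2, LOC101341365 and CCRL2. Their log2 ratios along this stretch were -1.28, 1.09, 0.19, -2.42, -2.63, 1.53 and 3.07. CCR2 and CCRL2, 37.6 kb apart, hence differed in opposite directions, and both directions occurred within this stretch.

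The other receptors with rows were weak. ACKR3, which scavenges CXCL12, had 32, 13, 11 and 16 reads in the 4 libraries, equal to normalized counts of 20.5, 12.7, 17.7 and 43.0, and 0 to 14 reads in the 7 libraries, with a highest normalized count of 12.7 there. The 4 values lay just above the 7, since the lowest of the 4 was 12.66 and the highest of the 7 was 12.65. Of the 4441 rows with reads recovered in all 11 libraries, 2.79% had each of the 4 libraries above each of the 7 and 0.0676% had the reverse. Reads were recovered only where the 7-library mean was at most 6 and the 4-library mean at most 80. This filter favours the first order over the reverse, so the shares are no neutral background for ACKR3. ACKR1, the Duffy antigen, which is also found on red cells, had 0, 6, 22 and 3 reads, a log2 ratio of 1.12, and -0.29 without the library with the size factor 0.620. Its normalized counts overlapped, at 0 to 35.5 in the 4 libraries and 0 to 15.0 in the 7. XCR1, a receptor of cross-presenting dendritic cells, had a log2 ratio of 1.09 with means of 18.2 and 8.56, which was 0.69 and 0.86 without the libraries with the size factors 1.56 and 1.03. CCR10, a skin-homing receptor, had 3, 2, 2 and 0 reads in the 4 libraries and 2 reads in 1 of the 7, so its normalized counts overlapped. Its ratio was 8.35 per size factor with a 95% exact interval from 1.59 to 82.4, which covers counting error only.

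Receptors for attractants other than chemokines were a mixed group in which 6 of 13 listed genes had a row; the median of their log2 ratios was 0.18. FPR1, which detects formylated bacterial peptides and is carried by neutrophils and monocytes, had means of 698 and 442 and a log2 ratio of 0.66. FPR1 hence did not share the direction of CXCR1 and CXCR2. PTAFR, the receptor for platelet-activating factor, had a log2 ratio of -0.91 with means of 684 and 1281. S1PR1, by which lymphocytes leave lymph nodes, had means of 1742 and 2134 and a log2 ratio of -0.29. C5AR2, a C5a receptor, had means of 24.3 and 32.6. The 2 receptors past 2-fold were C3AR1, the receptor for complement C3a, at 1.06, and LTB4R2 at 1.79, where 23.9% of all rows were past 2-fold in this direction. C3AR1 had 0, 8, 28 and 15 reads in the 4 libraries, and its log2 ratio was 0.52 without the library with the size factor 0.620 and 0.66 without that of 0.372. LTB4R2 had 2 reads in the 4 libraries and 3 in the 7, a ratio of 1.59 per size factor with an interval from 0.133 to 13.9.

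Of 45 listed chemokine symbols 11 had a row, with a median log2 ratio of 0.37. At least 2-fold higher in the 4-library mean were 4 of the 11, and 1 was at least 2-fold higher in the 7-library mean, where the shares of all rows were 23.9% and 10.4%. With an overall mean of at least 10 these counts were 2 and 0, beside 12.3% and 9.59% of all such rows. CXCL8 and CXCL6, ligands of CXCR1 and CXCR2, ran opposite to these receptors. CXCL8 (interleukin 8), their main ligand, had means of 42281 and 3670 and a log2 ratio of 3.53. CXCL6, another ligand of the pair, had 77, 18, 6 and 0 reads in the 4 libraries against 4 reads and 1 read in libraries of the 7 and 0 in the other 5. Its ratio per size factor was 48.2 with a 95% exact interval from 19.99 to 152, and its log2 ratio was 4.79, or 3.71 without the library with the size factor 1.56. The 4 libraries, each below the 7-library mean of CXCR1 and of CXCR2, thus had the higher CXCL8 mean. Values of CXCL8 in single libraries could not be recovered. Within the 4 libraries CXCL6 was highest where CXCR1 and CXCR2 were lowest, in the library with the size factor 1.56, but it was not the reverse of them elsewhere.

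CCL20, the ligand of CCR6, had 16, 37, 121 and 2 reads in the 4 libraries against 1 read and 2 reads in libraries of the 7, so its groups did not overlap. The same order held in 2.79% of the 4441 rows recovered in all 11 libraries, which enter only at a 7-library mean of at most 6. The ratio of CCL20 per size factor was 140 with a 95% exact interval from 47.1 to 685, which covers counting error only. Without the library with the size factor 0.620 the log2 ratio was 5.14 in place of 6.98, and CCR6 had no row. CXCL10, a ligand of CXCR3, was the 1 chemokine past 2-fold in the other direction, with means of 1.93 and 7.52 and a log2 ratio of -1.96. Its reads were 2, 0, 4 and 0 in the 4 libraries, and the log2 ratio was -4.14 without the library with the size factor 0.620. CXCL12, the ligand of CXCR4, had 1 read in the 4 libraries and 4 in the 7, a ratio of 0.597 per size factor with an interval from 0.0121 to 6.03. XCL1, the ligand of XCR1, had 11 and 16 reads and a ratio of 1.64 per size factor, with an interval from 0.688 to 3.76; its log2 ratio was 1.302, and -0.05 without the library with the size factor 0.372. MIF, which also binds CXCR2 and CXCR4, had means of 19.7 and 22.0 and a log2 ratio of -0.16, which lay between -0.89 and 0.13 with any 1 of the 4 libraries left out, and CCL5, a ligand of CCR1, had means of 7.19 and 9.99. CCL2, CX3CL1, CXCL13, CCL19 and CCL21, the ligands of CCR2, CX3CR1, CXCR5 and CCR7, had no row under these symbols.

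**Figure D3:**
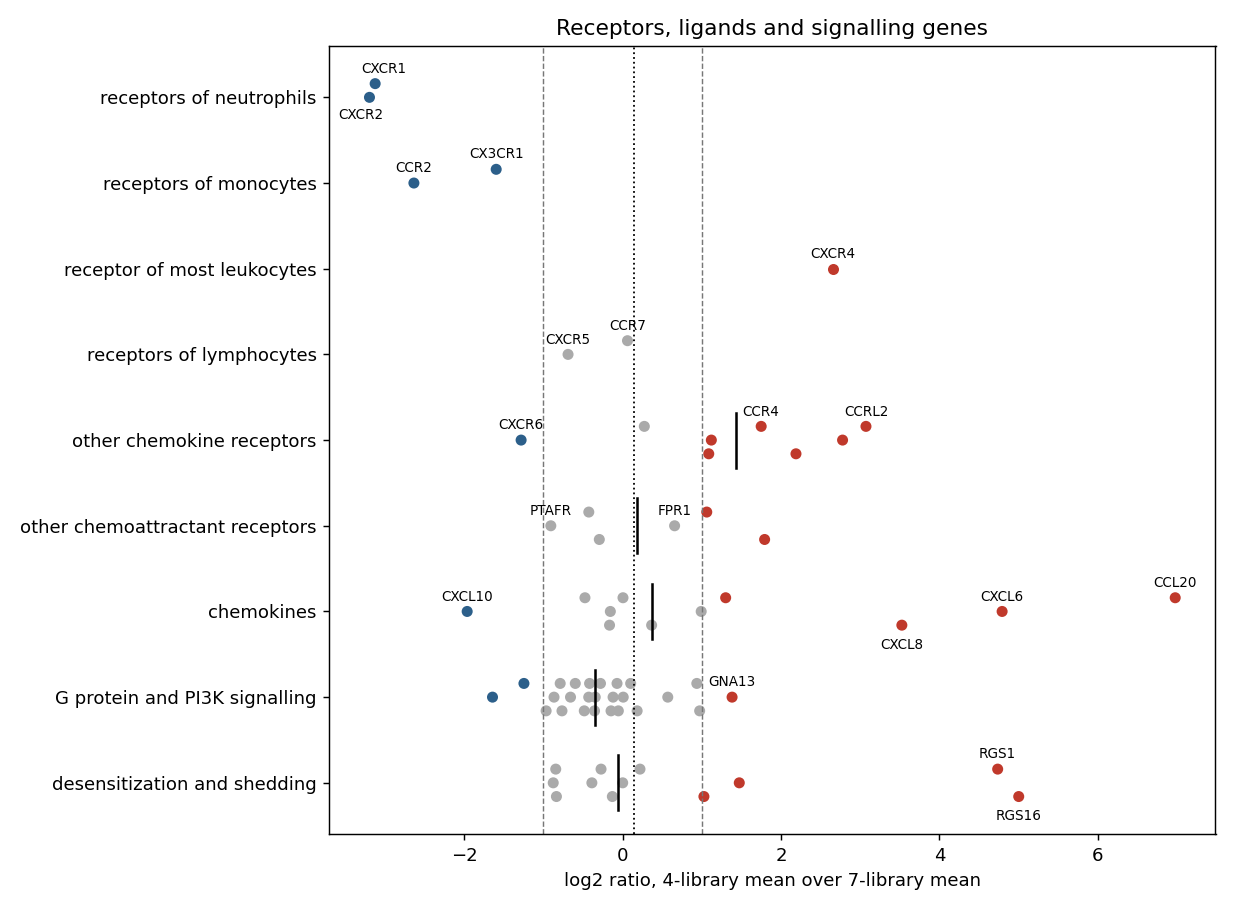
Log2 ratio of the 4-library to the 7-library mean for the chemokine receptors (top 4 lines) and for the listed receptors, chemokines and signalling genes, 1 point a row of the table. Red points are at least 2-fold higher in the 4-library mean, blue points at least 2-fold higher in the 7-library mean and grey points lie between, the dashed lines mark 2-fold, the dotted line marks the median of all rows at 0.14 and short bars mark the median of a list. The receptors CXCR1 and CXCR2 lie at the far left, at -3.12 and -3.19, and their ligands CXCL8 and CXCL6 at the right, at 3.53 and 4.79.

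Most genes of the machinery that carries the signal of these receptors lay within 2-fold. Of 35 listed genes for G proteins, phosphoinositide 3-kinase and small GTPases, 22 had rows, 25 in all, with a median log2 ratio of -0.34. Of these 25 rows, 1 was at least 2-fold higher in the 4-library mean and 2 in the 7-library mean, beside 23.9% and 10.4% of all rows. GNA13, the G protein subunit that activates RHOA, had means of 2670 and 1024 and a log2 ratio of 1.38. PIK3CD had means of 15.0 and 35.4 and a log2 ratio of -1.24, which was -0.91 without the library with the size factor 0.620 and -2.10 without that of 0.372. One of the 2 rows of CDC42, a GTPase of cell polarity, had a log2 ratio of 0.97 and the other 0.10. GNAI2, the inhibitory G protein subunit that couples these receptors in leukocytes, had means of 859 and 1460, and PIK3CG, the kinase isoform they activate, had means of 988 and 1927.

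Of 21 listed genes that switch receptors off or shed them, 12 had a row. Of these 12 rows, 4 were at least 2-fold higher in the 4-library mean and 0 in the 7-library mean, beside 23.9% and 10.4% of all rows. The median log2 ratio of the 12 was -0.06. The 2 that stood out are regulators of G protein signalling, which shorten the active state of the G protein. RGS1, known to restrain CXCR4 and CCR7 in lymphocytes, had means of 12447 and 467 and a log2 ratio of 4.74. RGS16 had 25, 11, 61 and 14 reads in the 4 libraries against 6 and 6 reads in libraries of the 7 and 0 in the other 5. Its groups did not overlap, as in 2.79% of the 4441 rows recovered in all 11 libraries, which enter only at a 7-library mean of at most 6. The ratio of RGS16 per size factor was 22.1 with a 95% exact interval from 12.1 to 44.0, which covers counting error only. Its log2 ratio was 5.002, and 4.08 without the library with the size factor 0.620. RGS18, a regulator abundant in platelets, had means of 4974 and 2440 and a log2 ratio of 1.03. RGS13 also passed 2-fold, on 5 and 3 reads, with a ratio of 3.98 per size factor and an interval from 0.774 to 25.6, and its log2 ratio of 1.47 was 0.09 without the library with the size factor 0.620. RGS19 had a log2 ratio of -0.87. The kinase GRK2, which phosphorylates the active receptors, and the protease ADAM17, which sheds surface proteins, had log2 ratios of -0.83 and -0.84, that of ADAM17 being -1.06 without the library with the size factor 0.620 and -1.26 without that of 0.372.

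**Figure D4:**
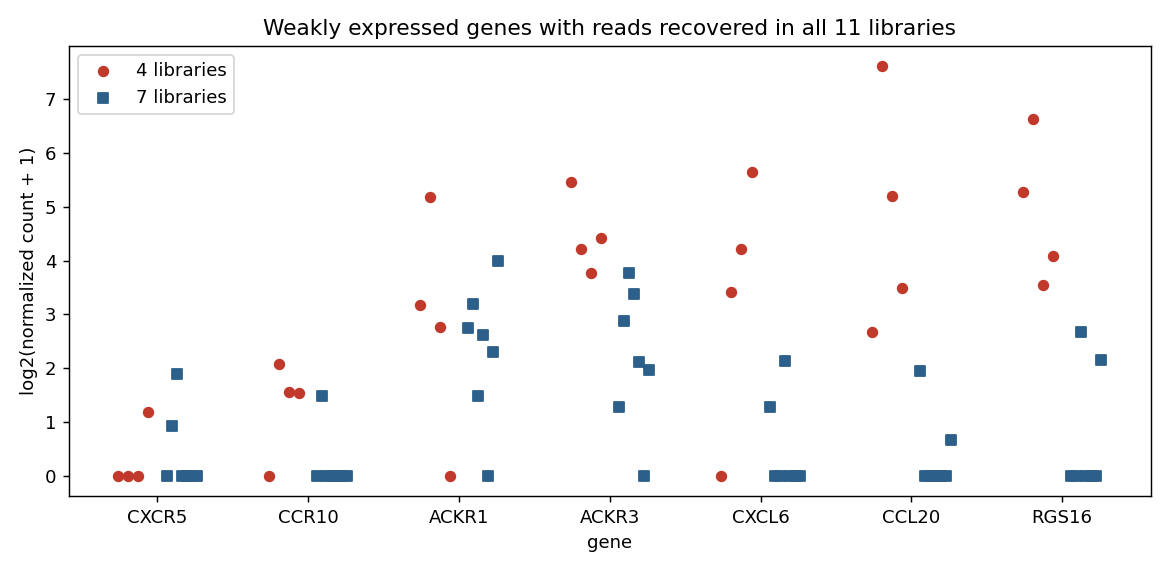
Log2 of the normalized count plus 1 in all 11 libraries for CXCR5 and 6 weakly expressed genes of receptors, ligands and regulators, with 1 point a library (circles, 4 libraries; squares, 7 libraries). The circles of ACKR3, CCL20 and RGS16 lie above all squares of the gene, by a hair for ACKR3 (12.66 against 12.65 normalized counts), whereas those of CXCR5, CCR10, ACKR1 and CXCL6 overlap with the squares. Only genes with a 7-library mean of at most 6 can be drawn this way.

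Cell type markers were set beside the receptors, since in a bulk sample fewer cells of a type and less RNA per cell cannot be told apart. As background for the counts, 10.4% of all rows were at least 2-fold higher in the 7-library mean and 23.9% in the 4-library mean. Neutrophil markers moved with CXCR1 and CXCR2: 11 of the 13 with a row were at least 2-fold higher in the 7-library mean and 1, OLFM4 on means of 14.5 and 2.08, was higher in the 4-library mean. Their median log2 ratio was -2.23, and their means summed to 2312 over the 4 libraries and 12584 over the 7. CEBPE, a transcription factor of late granulocyte maturation, had means of 5.35 and 86.4 and a log2 ratio of -4.01. MMP9, the gelatinase of neutrophil granules, had means of 76.5 and 762 and a log2 ratio of -3.32, ALPL (alkaline phosphatase) had 2.10 and 15.5, and S100A9, a calprotectin subunit, had 835 and 5429. CSF3R, the receptor for the growth factor of neutrophils, had means of 425 and 1990 and a log2 ratio of -2.23. CXCR1 and CXCR2 thus lay beyond the median of the neutrophil markers and within their range of -4.01 to 2.80.

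The neutrophil markers with recovered reads, 8 rows, had summed normalized counts of 67.4, 157, 210 and 105 in the 4 libraries, again highest in the library with the size factor 0.620 and lowest in that of 1.56. MMP9 had 42, 90, 72 and 28 reads, equal to normalized counts of 26.9, 87.6, 116 and 75.3, and CEBPE had 5, 6, 6 and 1 reads. The order of the libraries by this sum was that of CXCR1, and that of CXCR2 except that the libraries with the size factors 1.03 and 0.372 changed places. MMP9 and OLFM4 (0, 9.74, 48.4 and 0) made much of the sum, and single markers did not all share this order. The highest library was that of 0.620 in 4 of the 8 rows, that of 1.03 in 3 and that of 0.372 in 1. Among the 3268 rows with recovered reads and a 4-library mean of at least 20, these libraries were highest in 938, 544 and 1123 rows. The library with the size factor 1.56 was highest in 663. Most of the 8 markers had lower means than these rows. PADI4 was lowest in the library with the size factor 0.620, at 16.1 normalized counts. Without the library with the size factor 0.620, 3 of the 3 receptors CXCR1, CXCR2 and CCR2 and 5 of the 8 neutrophil markers were at least 2-fold higher in the 7-library mean, against 3 and 6 with it. Among all 9632 rows with reads recovered in the 4 libraries, 1763 were so without this library and 1294 with it. OLFM4 and ALPL then had log2 ratios of 0.64 and -4.58, in place of 2.80 and -2.89. Eosinophil and basophil markers had a median log2 ratio of -1.92 over 5 rows, with 4 at least 2-fold higher in the 7-library mean (10.4% of all rows) and sums of 21.1 and 69.9. Eosinophil peroxidase (EPX) had means of 5.69 and 26.3, IL5RA 2.51 and 19.2 and PRG3 4.37 and 16.1. Without the library with the size factor 1.03 their log2 ratios were -2.96, -5.49 and -3.32, in place of -2.21, -2.93 and -1.88. The part of cell composition in the values of CXCR1 and CXCR2 was not tested.

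Monocyte markers did not move with CCR2 and CX3CR1. Of 8 rows 4 were at least 2-fold higher in the 4-library mean and 0 in the 7-library mean, beside 23.9% and 10.4% of all rows. The median log2 ratio of the list was 0.52, with sums of 4774 and 3786. CLEC4E, an inducible lectin receptor, had means of 2273 and 959 and a log2 ratio of 1.24. VCAN (versican) had a log2 ratio of 1.29 in 1 row and -0.16 in the other. CSF1R, the receptor for the growth factor of monocytes, had means of 449 and 496. CD14 had no row. The log2 ratios of CCR2 and CX3CR1, -2.63 and -1.59, lay below all 8 values of the list, whose lowest was LYZ (lysozyme) at -0.57.

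Most lymphocyte markers lay within 2-fold. The T cell list had a median log2 ratio of 0.24 over 9 rows, with sums of 7226 and 6335. In it 2 rows, CD2 at -1.22 and CD4 at -1.04, were at least 2-fold higher in the 7-library mean, as were 10.4% of all rows. CD27, a costimulatory receptor, stood at 0.67. The B cell list had a median of -0.44 over 5 rows with sums of 826 and 876, led by CD22 at -1.07, PAX5 at -0.88 (-1.24 without the library with the size factor 0.372) and EBF1 at -0.44, with BLK at 0.27. The NK cell list rested on 3 rows with a median of 0.31, the value of NCAM1, of which EOMES, with means of 0.993 and 4.19, was at least 2-fold higher in the 7-library mean. Without the library with the size factor 0.620 the median of the NK cell list was -0.82, so its direction turned on that library, and NCAM1 likewise stood at -0.82. CD22 stood between -1.70 and -0.83 with any 1 of the 4 libraries left out, EOMES at -3.29 without that of 0.372. CCR7 and CXCR5, at 0.06 and -0.69, lay within the ranges of the T cell and B cell lists, respectively, and CXCR4, at 2.65, lay above all rows of both.

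Genes of platelets and of the immediate early response moved with CXCR4. Platelet markers were at least 2-fold higher in the 4-library mean in 6 of 7 rows, beside 23.9% of all rows. Their log2 ratios had a median of 1.82, with sums of 15313 and 4429. ITGB3, TUBB1 and GP9 had log2 ratios of 2.21, 2.17 and 1.82, that of GP9 being 1.01 without the library with the size factor 0.620. MMRN1 (multimerin) had 71 reads in the 4 libraries, with 0 in that of size factor 1.56, and 1 in the 7. The ratio per size factor was 169 with a 95% exact interval from 29.4 to 6785, which covers counting error only. Its log2 ratio was 8.47, or 7.73 without the library with the size factor 0.620. In the 4 platelet rows with recovered reads the sums were 104, 121, 463 and 118, highest in the library with the size factor 0.620, which was also that of CXCR1 and CXCR2. Immediate early genes, transcription factors and regulators induced within minutes of a stimulus or of handling, were at least 2-fold higher in the 4-library mean in 12 of 15 rows and in the 7-library mean in 0, with a median of 2.59 and sums of 31003 and 7573. Among all rows these shares were 23.9% and 10.4%. CD69, NR4A2, ATF3 and JUN had log2 ratios of 3.76, 3.62, 3.47 and 3.41, that of ATF3 being 2.77 without the library with the size factor 0.372, and CXCR4, at 2.65, lay within the range of this list, 0.83 to 3.76. Erythroid markers had a median of -0.07 over 5 rows, with sums of 228 and 531 and log2 ratios from -1.48 to 1.41. At least 2-fold higher were 1 row in the 4-library mean and 1 in the 7-library mean, beside 23.9% and 10.4% of all rows. ALAS2, the first enzyme of heme synthesis in red cells, stood at -1.48, SLC4A1 at -0.41 and SPTB at -0.07. The erythroid rows not named were higher in the 4-library mean. Without the library with the size factor 0.620, SLC4A1 and SPTB had log2 ratios of -1.35 and -0.72, and the median of the 4 erythroid rows with recovered reads moved from -0.01 to -1.003. The part of platelets, handling or red cell precursors in the receptor values was not tested.

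**Figure D5:**
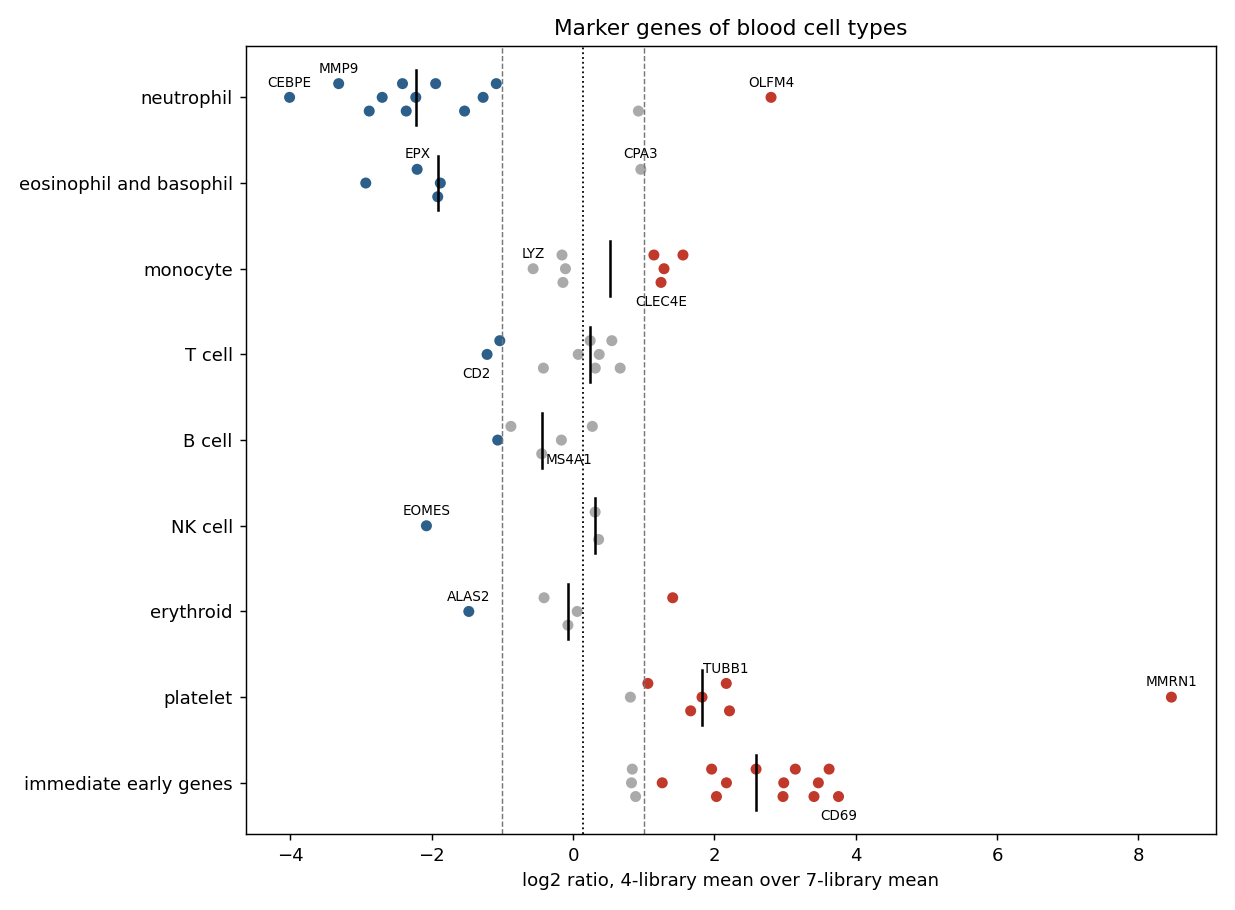
Log2 ratio of the 4-library to the 7-library mean for marker genes of blood cell types and for immediate early genes, 1 point a row, with colours and lines as in the plot of receptors, ligands and signalling genes. Neutrophil markers centre at -2.23 and eosinophil and basophil markers at -1.92, monocyte and lymphocyte markers lie nearer to 0, and platelet markers and immediate early genes centre at 1.82 and 2.59.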

How the data were processed

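The values are the authors' deposited table of 1 comparison. The authors trimmed reads with cutadapt, mapped them to TriManLat1.0 with Bowtie2, removed duplicates with SAMtools, kept uniquely mapped reads and compared the groups with DESeq in a tool that also offers edgeR. The program that counted reads is not given in the labels or methods. The authors' means are a signal, counts divided by size factors. The authors' fold change (a ratio), its log2 value, and their p-value and adjusted p-value were deposited too and were not used here. No column of a single sample was left out (0). Total counts per library are unknown, so size factors stand for relative depth.

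Gene symbols came from the RefSeq table of TriManLat1.0 and matched 10080 rows (65.9%) by record without version; 1658 matched with it. Ratios of means were computed in Python 3.11.15 with pandas 2.3.3. With no value per sample for most rows, and receptors chosen by the same contrast, no test was made. Whole reads per library were recovered where a single combination gave the mean, in 9632 of the 9634 rows whose 4-library mean did not exceed 80 and in 4459 of the 4505 rows whose 7-library mean did not exceed 6, within 6e-10 of means below 10. Tested on simulated data, 100% and 99.6% of 500 means per group gave a single combination, 100% of them true. Intervals are 95% exact binomial (scipy 1.17.1). They cover counting error only and not the spread between animals.

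The receptors and the 18 gene lists (289 symbols) were chosen with earlier results of these data known. Named are the 9 receptors; other receptors and chemokines past 2-fold or among the 4 highest means of their list; in signalling and marker lists the 4 largest log2 ratios among overall means of at least 10; and the 5 rows most like CXCR1 and CXCR2. CXCL12, RGS13, GRK2, ADAM17, GNAI2, PIK3CG, CSF3R, OLFM4, CSF1R, MS4A1, EOMES and the neighbours of CCR2 fall outside this rule and were named after their values had been seen. Alternatives were a pseudocount of 1, a mean of at least 10, limits of 1.5-fold and 4-fold, centring, 1 row a symbol and leaving out libraries. Some genes that the rule names are not reported here.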

Additional observations from a re-analysis of the deposited data

Results flagged for a closer look

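Values far from the rest of their group were looked for in 31 groups of 4 or 7 libraries by Dixon's gap, and 8 were found. The limit for this gap is set at 1 in 20 for normally distributed values and not for small counts. A group with reads in only 1 library has a gap equal to its whole range, so it passes the limit whatever its value. The number found therefore cannot show an excess of far values. Among the 4 libraries, CCL20 had a highest normalized count of 195, and the next was 36.0; this was the library with the size factor 0.620, in which CXCR1 and CXCR2 were also highest. The other 7 values rest on 1 to 4 reads. They are CXCR5 with 1.28 as the highest of the 4 libraries and 2.71 as the highest of the 7, CXCL12 with 1.61 and 2.56 likewise, CCL20 with 2.85, CCR10 with 1.81 and CXCL6 with 3.41 as the highest of the 7.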

How the results depend on the processing

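No paired analysis was possible because no column of the table holds values of 1 sample, and the replicate numbers of the labels cannot be tied to libraries. The counts of the receptors past the limit were within 1.5 times of those reported under a pseudocount of 1, an overall mean of at least 10, limits of 1.5-fold and 4-fold, centring on the median of all rows and 1 row a symbol. At 4-fold, 3 other chemokine receptors were higher in the 4-library mean and 0 in the 7-library mean, 0 chemokines were higher in the 7-library mean, and the signalling and desensitization genes past the limit numbered 2 and the cell markers 14, in place of 7 and 32. At 1.5-fold the signalling and desensitization genes numbered 18. With an overall mean of at least 10, chemokines numbered 2 in the 4-library and 0 in the 7-library direction. These shifts follow from the limits and from fewer rows. Of all rows, 12% and 2.27% were past 4-fold in the 4-library and 7-library directions, and 33.8% and 20.2% past 1.5-fold. Leaving out single libraries gave log2 ratios of -4.43 to -2.79 for CXCR1, -4.26 to -2.85 for CXCR2, -2.81 to -2.35 for CCR2 and -0.91 to 1.09 for CXCR5. The count of CXCR1, CXCR2 and CCR2 past 2-fold without the library with the size factor 0.620 was added after the values had been seen, as were the log2 ratios of other named genes with a library left out. In the 7 libraries only means of up to 6 can be taken apart, so the spread behind the 7-library means of all receptors except CXCR5 is unknown.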
